A study of Homo sapiens with 4 samples.

Results

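The genes described are 9 regulators of the G1 checkpoint, among 32955 genes in the table: the CDK inhibitors CDKN2A, CDKN2B, CDKN2C, CDKN1A and CDKN1B, cyclin D1 (CCND1), RB1, E2F1 and MDM2. They were listed by gene symbol, and they were chosen by their role and with their values in these 4 libraries already known, so their levels and differences are given as a description with no test. RNA-seq was performed on libraries labelled MDA-MB-231, an estrogen receptor-negative line from a human breast cancer, grown in DMEM with fetal bovine serum. Of the 4 libraries, 2 had received mimic NC, the negative control of the mimics, and 2 had received miR-217 mimic, a synthetic RNA that acts as miR-217. Nothing else in the labels separates the groups, RNA was isolated with TRIzol, and the libraries were built with a stranded mRNA kit. Each group holds libraries numbered 1 and 2, and the labels do not say what a number marks or whether the libraries came from separate cultures. The p-values given for other genes therefore measure only the spread between these samples, which may be technical.

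Cells pass from G1 into S phase when cyclin D bound to CDK4 or CDK6, and then cyclin E bound to CDK2, phosphorylate RB, which releases E2F factors and with them the genes of DNA replication. The INK4 inhibitors, encoded by CDKN2A, CDKN2B and CDKN2C, bind CDK4 and CDK6, while the CIP/KIP inhibitors p21 (CDKN1A) and p27 (CDKN1B) act mainly on cyclin-CDK2. The tumor suppressor p53 induces CDKN1A and its own inhibitor MDM2, a ubiquitin ligase, and the p14ARF product of CDKN2A restrains MDM2. MDA-MB-231 is generally described as carrying a homozygous deletion of CDKN2A.

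The sequence of the transfected miRNA and the sites that match it in the 9 genes show which of them could pair with it through the seed. Mature miR-217 (RefSeq, GRCh38.p14, chr2:55983020-55983042, minus strand) is shown with bases 2 to 8, the seed, in capitals.
hsa-miR-217-5p: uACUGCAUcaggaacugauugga
The 3'UTR of 1 GENCODE 29 transcript of each gene was searched on its own strand for ATGCAGT (a match to the whole seed), for TGCAGTA (a match to bases 2 to 7 followed by A), and for the overlap of both, an 8-base match. Of the 9 genes, 2 held a match, and their sites are printed 5' to 3' with the match in capitals.
CDKN2B, 8-base match, chr9:22004776-22004783, minus strand, exon 2: agatgcacttATGCAGTAaattatcttg
MDM2, first match, chr12:68842182-68842188, plus strand, exon 11: aaaactactgATGCAGTgaagacagttg
MDM2, the second match, chr12:68842715-68842721, plus strand, exon 11: aaattttcttTGCAGTAaaatatgccct
MDM2, the third match, chr12:68845815-68845821, plus strand, exon 11: ccaggctggaATGCAGTgctgcaaacat
These coordinates are those of GRCh38. The 3'UTR searched had 3084 bases in CDKN2B and 10837 in MDM2, and 363 to 3192 bases in the other 7 genes, in which these letters were not found. Among the 9911 tested genes whose 3'UTR is annotated, 21.7% held ATGCAGT or TGCAGTA and 3.67% held the 8-base match. A match describes letters only, and binding was not measured.

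CDKN2A, which encodes p16INK4A and p14ARF, was expressed in every library. Its level was 13.2 and 11.5 RPKM (reads scaled by exon length and by the reads counted in the library) in mimic NC libraries 1 and 2, and 12.8 and 10.5 RPKM in miR-217 mimic libraries 1 and 2. These levels rested on 3318, 2355, 2963 and 1488 reads, and 73.2% of the 13871 genes with a mean of at least 1 RPKM had a lower mean than CDKN2A. A deleted gene leaves no transcripts of its own, so the levels go against the usual description of the labelled line, and the cells are called here by their label.

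Exact sequence shared with another annotated gene covered only a short stretch of CDKN2A. Near matches and copies outside the annotated transcripts were not searched, and the aligner is not given. The share of reads from related genes was therefore not tested. Of 4550 words of 50 bases in the GENCODE transcripts of CDKN2A, 31 also occurred in another gene, CDKN2B. CDKN2A also overlaps its antisense neighbour CDKN2B-AS1 over 341 of its 4329 exon bases (chr9:21967753-21995301, hg38). CDKN2B-AS1 was at 0.776 to 0.948 RPKM, with 107 to 232 reads in a library, which is far fewer than the reads of CDKN2A. The table gives 1 value a gene, so the p16INK4A and p14ARF transcripts cannot be told apart. MDM2 shared 5.34% of its words with 508 other genes, so its value is less certain, and the other 6 members shared none.

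The genes next to CDKN2A on 9p21 had reads as well. MTAP, a methionine salvage enzyme whose gene ends 30.1 kb from CDKN2A and is often lost together with it, was at 1.28 and 1.57 RPKM in the mimic NC libraries and 1.32 and 1.70 RPKM in the miR-217 mimic libraries, on 812 to 1087 reads. Farther out on that side, KLHL9, a ubiquitin ligase adaptor, was at 2.63 to 3.78 RPKM, MLLT3 at 2.05 to 2.94 RPKM, FOCAD at 0.888 to 1.22 RPKM and MIR31HG at 0.931 to 1.39 RPKM. HACD4 reached 0.117 to 0.233 RPKM, while the antisense CDKN2A-AS1, IFNE and IFNB1 had at most 12 reads in any library. On the other side, DMRTA1, 452 kb away, was at 0.338 to 0.506 RPKM and TUSC1 at 1.63 to 2.27 RPKM. Both genes of the locus that encode INK4 proteins thus stood above all 12 of these neighbours in every library.

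**Figure D1:**
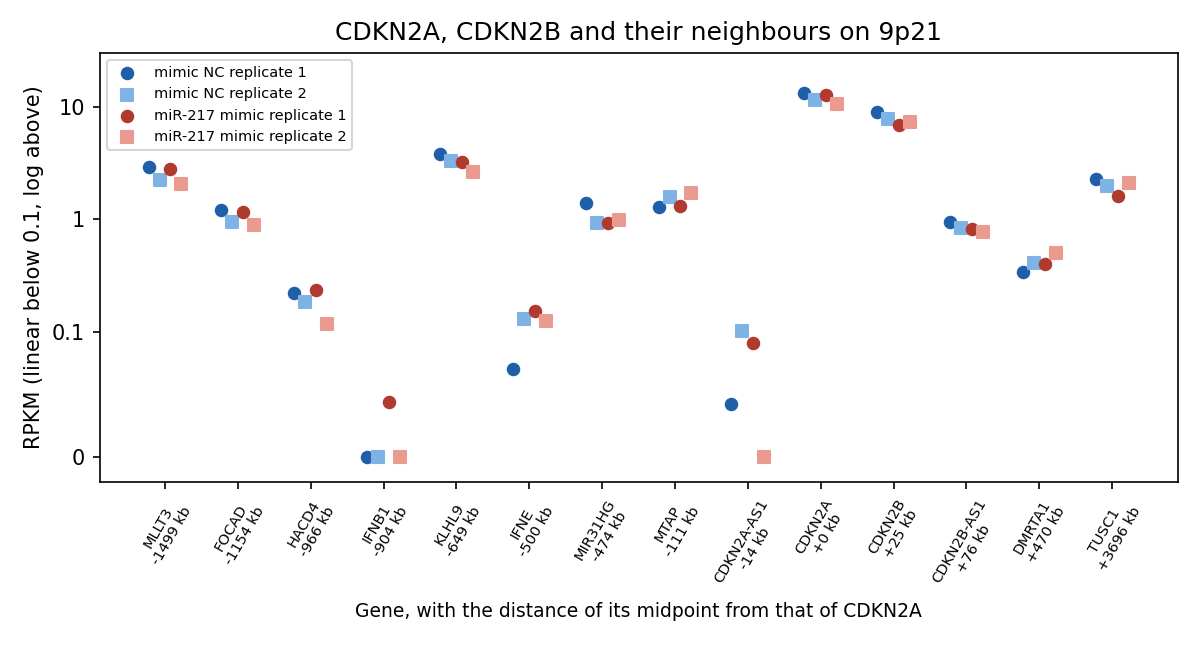
RPKM of CDKN2A, CDKN2B and 12 neighbouring genes in the 4 libraries, 1 point a library, ordered along chromosome 9 with the distance between gene midpoints in kb; the axis is linear below 0.1 RPKM and logarithmic above. CDKN2A, at 10.5 to 13.2 RPKM, and CDKN2B, at 6.92 to 8.91 RPKM, are the highest genes of the region, and IFNB1 and CDKN2A-AS1 are at or near 0.

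The labelled cell type was also set against markers. Of 14 mesenchymal or basal-like markers, 11 had a mean of at least 1 RPKM, led by MSN, ANXA1 and VIM. KRT5, KRT14 and SPARC of this list were at means of 0.0331, 0.0263 and 0.147 RPKM, and the list summed to 296 to 401 RPKM in a library. Of 14 luminal markers, 7 had a mean of at least 1 RPKM, with FOXA1, ERBB2, ERBB3 and EPCAM at means of 1.51 to 5.38 RPKM. ESR1, GATA3 and CDH1 of the luminal list were at means of 0.0583, 0.0802 and 0.300 RPKM. However, KRT8, KRT18 and XBP1, which the luminal list holds, were high, and the sum of that list was 820 and 768 RPKM in the libraries numbered 1 but 446 and 410 RPKM in those numbered 2. KRT8 and KRT18 carry this sum, and the list did not move as 1: XBP1 was at 83.6 and 78.3 RPKM in libraries numbered 1 and at 115 and 101 RPKM in those numbered 2, and EPCAM at 3.90 and 5.16 RPKM against 5.06 and 7.41 RPKM. No hepatocyte marker had a mean of at least 1 RPKM, and MITF was the melanocyte marker above it, LYZ the leukocyte marker, and LUM and DCN the fibroblast markers. The fibroblast list summed to 16.2 and 14.6 RPKM in libraries numbered 1 and to 6.85 and 7.52 RPKM in those numbered 2. Library totals recovered from the RPKM values were 57933183 and 47374957 reads for mimic NC 1 and 2, and 53356283 and 32635814 reads for miR-217 mimic 1 and 2. Fewer cells of a kind and less RNA per cell cannot be told apart in such bulk libraries.

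The 9 genes spanned a wide range of levels. CCND1, which drives CDK4 and CDK6, was the highest at a mean of 41.3 RPKM over the 4 libraries, and CDKN1A, the p53-induced inhibitor, was the lowest at 3.31 RPKM. Between them stood CDKN1B (19.2 RPKM), CDKN2C (12.6), CDKN2A (12.02), CDKN2B (7.75), E2F1 (7.61), MDM2 (6.04) and RB1 (4.40). The neighbours CDKN1B and CDKN2C, CDKN2C and CDKN2A, and CDKN2B and E2F1 overlapped in their ranges over the 4 libraries, while the ranges of the other neighbours in this order were separate. Within each library CDKN1B was above CDKN2C, whereas the order of the other overlapping pairs changed between libraries, and these did not differ beyond their spread. RPKM is a level per exon length, and the long MDM2 entry of 13269 exon bases includes 1224 bases that other genes also cover. Of these genes, the antisense RP11-611O2.5 (785 bases shared) was at 19.7 to 29.5 RPKM. RP11-611O2.3, on the same strand (439 bases shared), was at 13.0 to 16.8 RPKM, and both were above MDM2. The antisense CPM (133 bases shared) was at 0.692 to 1.00 RPKM. The part of their reads in the MDM2 value was not tested.

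**Figure D2:**
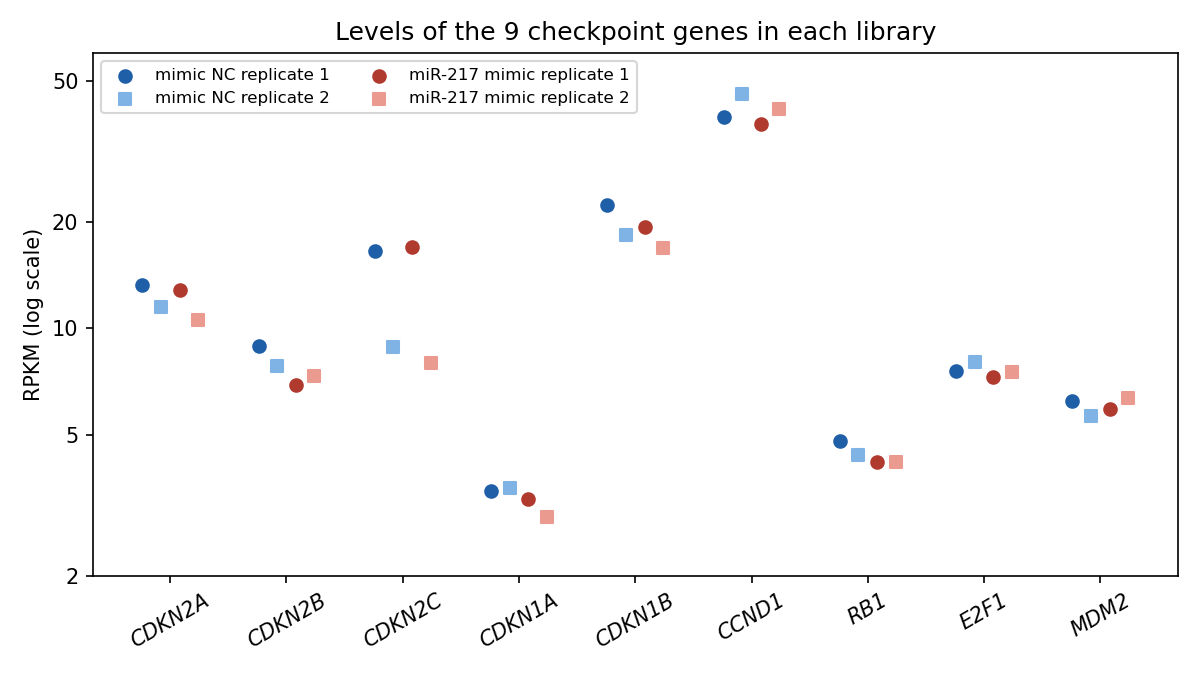
RPKM of the 9 genes in each of the 4 libraries on a logarithmic axis, with circles for libraries numbered 1, squares for libraries numbered 2, blue for mimic NC and red for miR-217 mimic. CCND1 lies at 37.9 to 45.9 RPKM and CDKN1A at 2.93 to 3.54 RPKM, and only CDKN2C splits widely, between the numbers.

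Among the INK4 genes, CDKN2B was separate between the treatments, and CDKN2C, like CDKN2A, between the numbers. Of all tested genes, 23.2% did not overlap between the treatments and 62.4% did not overlap between the numbers. CDKN2B, which encodes p15INK4B, was at 8.91 and 7.82 RPKM with mimic NC and at 6.92 and 7.35 RPKM with miR-217 mimic, on 2094, 1504, 1498 and 973 reads. The gene lies next to CDKN2A at chr9:22002903-22009363 (hg38, minus strand). Both mimic NC libraries were above both miR-217 mimic libraries, with means of 8.37 ± 0.77 and 7.13 ± 0.30 RPKM (SD, n = 2). CDKN2C (chr1:50960745-50974633, plus strand), which encodes p18INK4C, was at 16.6 and 17.0 RPKM in the libraries numbered 1 and at 8.85 and 8.01 RPKM in those numbered 2, mimic NC first in each pair. The gene was thus high in both libraries numbered 1 and low in both numbered 2, while the treatments overlapped.

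The CIP/KIP genes spanned less than CDKN2C. CDKN1A (chr6:36676460-36687339, plus strand) was at 3.48 and 3.54 RPKM with mimic NC and at 3.29 and 2.93 RPKM with miR-217 mimic, on 292 to 615 reads, the fewest of the 9 genes in every library. CDKN1B (chr12:12715058-12722371, plus strand) was at 22.4 and 18.4 RPKM with mimic NC and at 19.4 and 16.8 RPKM with miR-217 mimic. For CDKN1A the treatments did not overlap and the numbers did, whereas for CDKN1B the numbers were separate and the treatments overlapped.

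The other 4 genes sit at the target of these inhibitors or beside p53. CCND1 (chr11:69641087-69654474, plus strand; 497 of 4830 exon bases shared with the antisense gene ORAOV1, which was at 4.77 to 6.09 RPKM) was at 39.5 and 45.9 RPKM with mimic NC and at 37.9 and 41.7 RPKM with miR-217 mimic, so it was higher in both libraries numbered 2. RB1 (chr13:48303751-48481986, plus strand), the brake on E2F, was at 4.81 and 4.40 RPKM with mimic NC and at 4.20 in both libraries with miR-217 mimic. E2F1 (chr20:33675683-33686404, minus strand), a transcription factor that RB holds back, was at 7.57 and 8.05 RPKM with mimic NC and at 7.27 and 7.54 RPKM with miR-217 mimic. Neither miR-217 mimic library reached the lower of the mimic NC libraries for RB1 or for E2F1, by a small margin for E2F1. MDM2 (chr12:68808176-68850686, plus strand) was at 6.24 and 5.64 RPKM with mimic NC and at 5.91 and 6.36 RPKM with miR-217 mimic, and it overlapped in both comparisons.

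The study compared miR-217 mimic with mimic NC to look for transcripts that change with the miRNA. The differences of the 9 genes on the log2(RPKM + 1) scale, which understates changes of low genes, lay between -0.20 and 0.04, with 8 genes lower and 1, MDM2, higher with miR-217 mimic. Their median was -0.10, beside -0.02 for all genes tested. CDKN2B differed by -0.20 (SE 0.12), CDKN1B by -0.16 (SE 0.16), CDKN1A by -0.13 (SE 0.12), RB1 by -0.11 (SE 0.12) and CCND1 by -0.10 (SE 0.14). CDKN2A differed by -0.08 (SE 0.15), E2F1 by -0.07 (SE 0.11), CDKN2C by -0.05 (SE 0.44) and MDM2 by 0.04 (SE 0.12). For CDKN2B, which holds the 8-base match printed above, the difference was -0.32 between the libraries numbered 1 and -0.08 between those numbered 2. For MDM2, with its 3 matches, it was -0.07 and 0.15. Of all tested genes, 0.483% were higher and 0.707% lower at an unadjusted p under 0.05 in limma. At a Benjamini-Hochberg adjusted p under 0.05, limma called 0% of the genes, while 165 genes had an unadjusted p under 0.05 in limma and 82 with limma voom on the recovered reads, which also called 0 after adjustment. The libraries did not overlap between treatments for 4 of the 9 genes (CDKN2B, CDKN1A, RB1 and E2F1) and for 23.2% of all tested genes. The sign of CDKN2A, CDKN2C, MDM2 and CCND1 in this comparison changed when a single library was left out. Such a fit no longer balances the numbers, so it also takes in part of the difference between them. Between libraries of the same number, number 1 first, CDKN2A differed by -0.04 and -0.11 and CCND1 by -0.06 and -0.14. CDKN2C differed by 0.04 and -0.13. Without mimic NC library 1 or without miR-217 mimic library 2, CDKN2C differed by up to 0.45 and CDKN2A by up to 0.05, MDM2 was below 0 without either library numbered 2, and CCND1 was at 0.01 without mimic NC library 2.

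**Figure D3:**
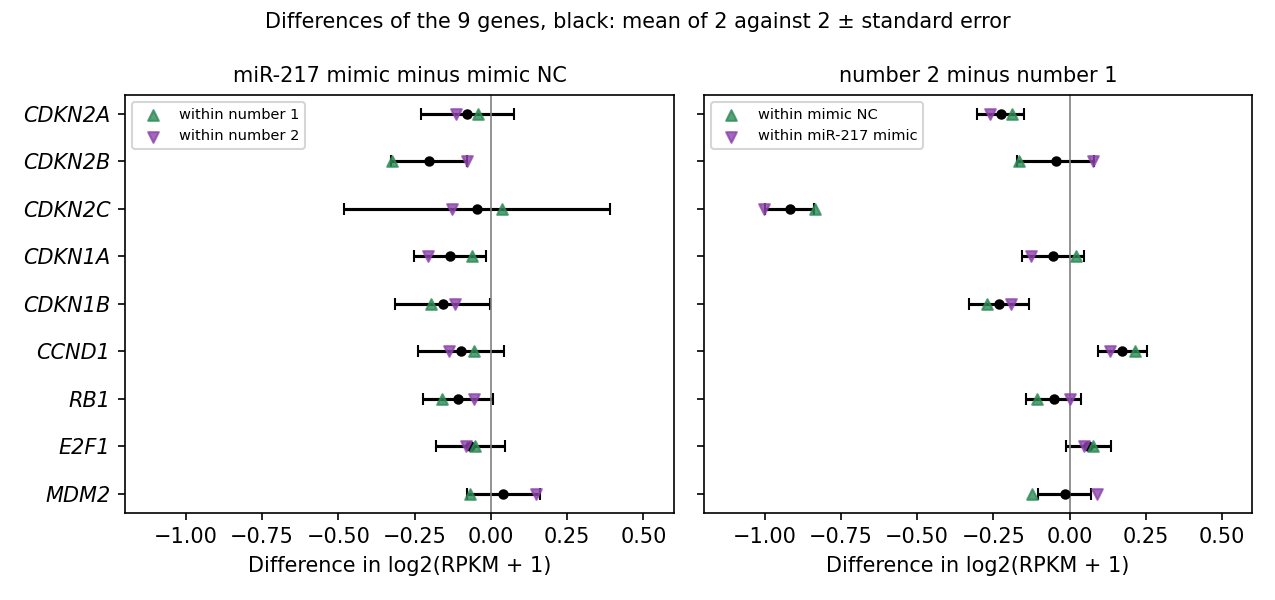
Differences in log2(RPKM + 1) of the 9 genes, miR-217 mimic minus mimic NC on the left and libraries numbered 2 minus libraries numbered 1 on the right; black points are the mean differences of 2 against 2 libraries with the standard error of the limma fit, and triangles are the differences between single libraries. On the left the black points lie between -0.20 and 0.04 and the triangles between -0.32 and 0.15, and on the right CDKN2C stands apart at -0.92.

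Between the numbers, CDKN2C had the widest difference of the 9 genes. Its mean was 16.8 ± 0.33 RPKM in libraries numbered 1 and 8.43 ± 0.60 RPKM in those numbered 2 (SD, n = 2 each), a change of -49.8%. The difference was -0.92 (SE 0.08) on the log2(RPKM + 1) scale, -0.83 within mimic NC and -1.0 within miR-217 mimic. CDKN2A differed by -0.23 (SE 0.08), CDKN1B by -0.23 (SE 0.10) and CCND1 by 0.17 (SE 0.08), and each was separate between the numbers. CCND1 thereby went the opposite way to these inhibitors, at 13.2% above its mean in the libraries numbered 1. E2F1 differed by 0.06 (SE 0.08), CDKN1A, RB1 and CDKN2B by -0.05 each (SE 0.10, 0.09 and 0.13) and MDM2 by -0.02 (SE 0.09), with the numbers overlapping for CDKN1A, RB1, CDKN2B, MDM2 and E2F1.

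The numbers did not overlap for 4 of the 9 genes and for 62.4% of all genes, and the median of the 9 genes was -0.05 beside -0.04 over all genes. Since the members were selected with this comparison in view, nothing is read from this count. The difference of CDKN2C was between -0.99 and -0.85 in every alternative. MDM2 turned positive under median centring, without mimic NC library 1 and without mimic NC library 2. CDKN2B and RB1 did so without mimic NC library 1, and CDKN1A without miR-217 mimic library 2. KRT8, KRT18 and the fibroblast marker LUM fell with the number as well, KRT8 from 421 and 393 RPKM in libraries numbered 1 to 165 and 154 RPKM in those numbered 2, while XBP1 and EPCAM of the luminal list were higher in libraries numbered 2. The part of these genes in the difference of CDKN2C was not tested. Depth was also lower in libraries numbered 2 within each treatment, and its part was not tested.

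Among the tested genes whose centred values followed CDKN2C most closely over the 4 libraries were ANXA6 and RP11-343H19.2. ANXA6, an annexin, was at 7.85, 3.77, 7.90 and 3.60 RPKM in mimic NC 1 and 2 and miR-217 mimic 1 and 2, and its largest gap to CDKN2C was 0.04 on the centred log2(RPKM + 1) scale. RP11-343H19.2 was at 4.42, 1.80, 4.15 and 1.78 RPKM, with a largest gap of 0.06. None of the other 8 members spanned 0.5 on this scale, so no like genes were sought for them.

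Genes around the 9 members were followed from lists of the pathways. Of the 33 p53 target genes with values, 28 were tested. Between the numbers 5 of the 28 were higher and 14 lower at an unadjusted p under 0.05 in limma, beside 12.8% and 17.4% of all tested genes, with a median of -0.29 beside -0.04 over all genes. GADD45A rose by 1.24 (SE 0.14, limma adjusted p = 0.0232), SESN2 by 1.13 (SE 0.09, adjusted p = 0.0147), PMAIP1 by 0.94 (SE 0.08, adjusted p = 0.0147) and GDF15 by 0.89 (SE 0.10, adjusted p = 0.0242) on the log2(RPKM + 1) scale in limma with Benjamini-Hochberg adjustment. These 4 genes encode a growth arrest factor, a sestrin, the BH3-only protein NOXA and a secreted stress hormone. They are also known as genes that amino acid and endoplasmic reticulum stress induce without p53. The part of such stress or of p53 in these differences was not tested. BTG2, an antiproliferative factor, fell by 0.66 (SE 0.08, limma adjusted p = 0.0243), the kinase gene PLK2 by 0.66 (SE 0.08, adjusted p = 0.0266) and TP53I3, a quinone oxidoreductase, by 0.58 (SE 0.08, adjusted p = 0.0329). TNFRSF10B, the fifth higher gene, differed by 0.19 at an unadjusted p. CDKN1A and MDM2, the p53 targets among the 9 genes, differed by -0.05 and -0.02 in the same comparison. The count of 14 lower targets became 5 without mimic NC library 1 and 7 without miR-217 mimic library 1, and no target was then called after adjustment. In limma, 7.04% of all tested genes were called after adjustment between the numbers, but only 9 genes when mimic NC library 1 was left out and 13 when miR-217 mimic library 1 was left out.

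Of 15 tested regulators of p53, the ubiquitin ligase gene RFWD2 had the largest rise between the numbers at an unadjusted p under 0.05, at 0.23, and TP53BP1, a DNA damage response factor, had the largest fall, at -0.41. None of the 15 was called after adjustment, and without mimic NC library 1 none passed an unadjusted p of 0.05.

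The kinases and cyclins that the inhibitors act on were mixed between the numbers. Of 19 tested genes, 5 were higher and 4 lower at an unadjusted p under 0.05, beside 12.8% and 17.4% of all genes, and CDK4, the partner of CCND1 and the target of the INK4 proteins, was the 1 called after adjustment. CDK4 was at 53.5 and 55.1 RPKM in libraries numbered 1 and at 70.8 and 70.7 RPKM in those numbered 2, a rise of 0.38 (SE 0.07, limma adjusted p = 0.0444). Without mimic NC library 1 the counts became 1 higher and 0 lower, without miR-217 mimic library 1 they became 2 and 0, and the adjusted call of CDK4 was lost in both and with no filter. CCNE1, which encodes cyclin E1, was the largest fall at -0.32. MNAT1, CCNH, CDC25A and FBXO31 were the other higher genes and CCNE2, CCND3 and SKP2 the other lower ones, all named after their values were seen. Of the 3 other CDK inhibitors tested, CDKN2D, CDKN1C and CDKN3, 0 passed an unadjusted p of 0.05 in limma. Of 18 tested genes of the RB and E2F family and their partners, LIN54 (0.24) and E2F4 (0.24) were higher and RBL2 (-0.30), an RB relative, and HDAC1 (-0.28) lower at an unadjusted p under 0.05, and none after adjustment. None of these 18 passed without mimic NC library 1 or without miR-217 mimic library 1, and 0 were higher and 3 lower without miR-217 mimic library 2.

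Of 32 E2F target genes, all tested, 3 were higher and 7 lower between the numbers at an unadjusted p under 0.05, near the shares of all genes (12.8% and 17.4%), with a median of -0.11. TK1, thymidine kinase, had the lowest difference at -0.50 (limma adjusted p = 0.0631) and CDT1, a licensing factor, the highest at 0.37 (adjusted p = 0.125). EZH2 and CDC45 were the other higher genes. Of the 7 lower genes, 1, other than TK1, was called at an adjusted p under 0.05 in limma. With a pseudocount of 0.1, with no filter or under median centring, 0 E2F targets were called after adjustment. At a minimum mean of 5 RPKM and with a treatment term 4 were called, and with voom 5, all lower. The 7 lower genes became 4 without miR-217 mimic library 1 and 12 without miR-217 mimic library 2, and the 3 higher genes became 0 without mimic NC library 1 and 1 without miR-217 mimic library 1.

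With miR-217 mimic against mimic NC, the main fit left the number out, so the difference between the numbers counted as spread within each treatment. Few calls in this fit therefore do not show that the pathways were unchanged. CCNA2, which encodes cyclin A2, was the only gene of the 6 pathway lists at an unadjusted p under 0.05, higher by 0.46 (SE 0.16, limma unadjusted p = 0.0404, adjusted p = 1.00). This call was lost without mimic NC library 2 and without either miR-217 mimic library, and without miR-217 mimic library 1, 2 p53 targets and 1 other CDK inhibitor were lower instead. CCNA2 was at 15.3 and 11.6 RPKM with mimic NC and at 18.3 and 19.0 RPKM with miR-217 mimic. Of the 32 E2F targets, 28 were above 0 with a median of 0.12 beside -0.02 over all genes. None passed an unadjusted p of 0.05 in limma in the main fit. With the number as a block, 5 were higher at that threshold, and 0 after adjustment. Without mimic NC library 2, 20 of the 32 were above 0 with a median of 0.06. Without miR-217 mimic library 1, 22 were above 0 with a median of 0.05. Without mimic NC library 1, 26 were above 0 with a median of 0.18, and without miR-217 mimic library 2, 28 with a median of 0.14. Each omission leaves the numbers unbalanced, and between the numbers the E2F targets had a median of -0.11. The medians of the p53 targets and of the p53 regulators were -0.01 and 0.02.

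**Figure D4:**
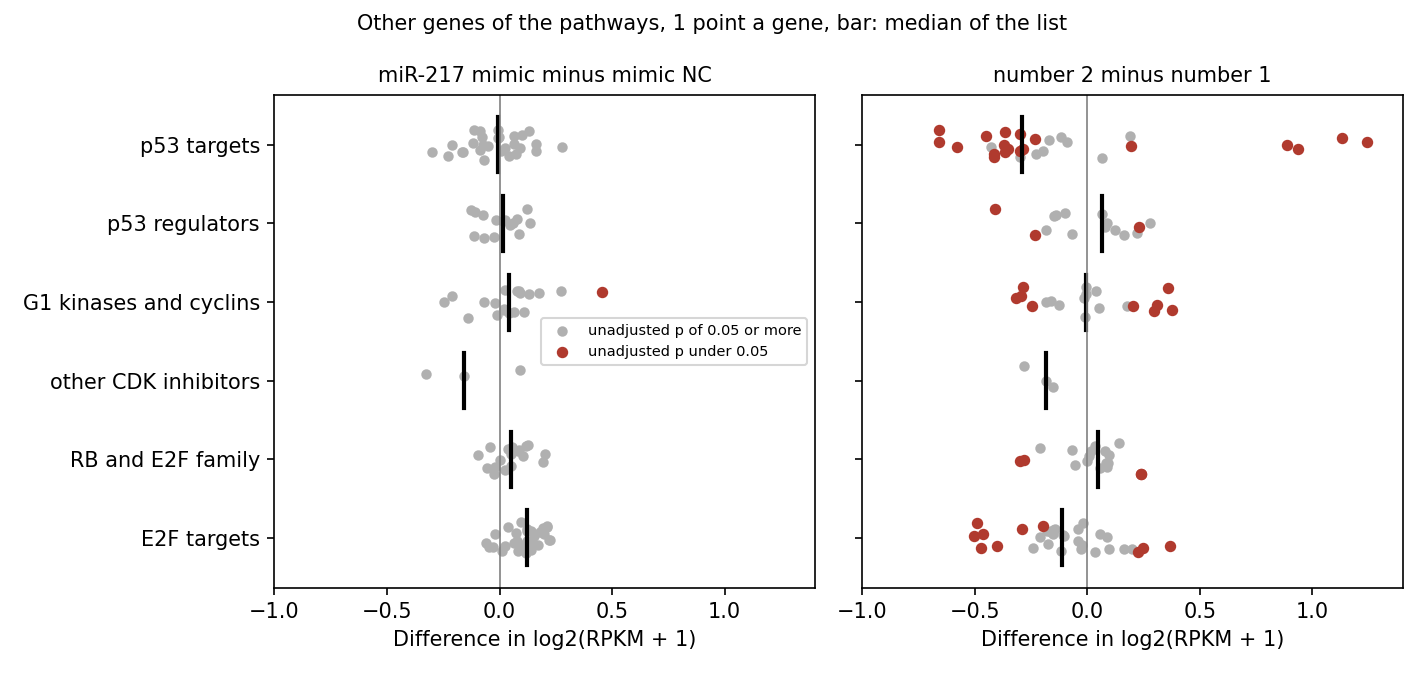
Differences in log2(RPKM + 1) of the tested genes of 6 pathway lists, 1 point a gene, miR-217 mimic minus mimic NC on the left and libraries numbered 2 minus libraries numbered 1 on the right; red points have an unadjusted limma p under 0.05, black bars are list medians, and the vertical scatter carries no meaning. On the left 1 gene, CCNA2, is red, and on the right the p53 targets reach from -0.66 to 1.24.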

How the data were processed

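RNA-seq of 4 libraries was used, 2 per group, with groups and numbers taken from the labels. The authors deposited RPKM per gene, with exon coordinates and summed exon lengths. The submitters' processing notes name hg38, Trimmomatic 0.36, featureCounts, Subread 1.5.1 and edgeR 3.12.1. The aligner, the annotation and the strand setting are not given in the sources used here, so reads of genes that overlap on opposite strands may not have been separated. Reads were recovered from RPKM, and 100% of the values gave a whole number of reads within 0.1 read. No other scaling between libraries was found: RPKM times length in kb summed to 1000000 in each.

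Differences were fitted with limma 3.58.1 in R 4.3.3 (lmFit, eBayes with trend) on log2(RPKM + 1) for the 13871 genes that averaged at least 1 RPKM, two-sided, with Benjamini-Hochberg adjustment over all of them. An exact permutation test of 2 against 2 libraries cannot go below 0.333 and was not used. The alternatives tried were median centring, no filter on low values, a minimum mean of 5 RPKM, a pseudocount of 0.1, limma voom on recovered reads, a replicate block or treatment term, and leaving out each library. For the pathway lists, most of these were chosen after seeing the data, as were the alternatives for the differences of the members.

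The members and lists were chosen with earlier results of these data known. The text names all 9 members, every 9p21 neighbour in the table, and the largest rise and fall at an unadjusted p under 0.05 per list and comparison. It also names up to 3 genes per direction at an adjusted p under 0.05, and the 3 genes nearest to a member that spans at least 0.5. Exceptions are the other genes of counts of 5 or fewer. GDF15, which the rule of 3 leaves out, is 1 of these, and markers are named from their own lists. Shared words of 50 bases and miR-217 matches were found in GENCODE 29 transcripts, in Python 3.11.15. The fits were tested on simulated counts for both comparisons. In these counts only the compared groups differed, so in the mimic comparison they held no difference between the numbers. They therefore do not show how the fits perform on these libraries. Some genes and 1 sequence that the rule would name are not reported here.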

Additional observations from a re-analysis of the deposited data

How the results depend on the processing

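The count of genes at an unadjusted p under 0.05 with miR-217 mimic was 165, and it became 877 with no filter, 48 at a minimum mean of 5 RPKM, 82 with voom and 93 to 866 when 1 library was left out. The count at an adjusted p was 0 in every alternative. Between the numbers, 4184 genes at an unadjusted p became 2474 at a minimum mean of 5 RPKM, and 1832 to 6037 when 1 library was left out. The 977 genes at an adjusted p became 3 with no filter, 2262 with voom, and 9 to 3931 when 1 library was left out. The p53 targets lower between the numbers went from 14 to 4 and the higher ones from 5 to 3 at a minimum mean of 5 RPKM, where fewer genes (12) were tested, and ranged over 5 to 17 and 4 to 6 when 1 library was left out. The E2F targets ranged over 4 to 12 lower and 0 to 3 higher. The causes of the other shifts were not tested.

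With the replicate number as a block, 1046 genes had an unadjusted p under 0.05 with miR-217 mimic. In the lists, 5 E2F targets, 2 kinases or cyclins and 1 p53 target were then higher, and 1 other CDK inhibitor lower. The deviations of the 2 same-numbered pairs correlated at 0.68, so same-numbered libraries resembled each other. With 2 pairs and no label that says what a number marks, what they share is not known.

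In mean RPKM, E2F1 stood above CDKN2B with miR-217 mimic and in libraries numbered 2, and CDKN2A above CDKN2C in libraries numbered 2. With 2 libraries a group the SE of the members' differences reached 0.08 to 0.44, and counts of CDKN1A (292 to 615 reads) were the fewest.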
